A study of Mus musculus with 6 samples.

Results

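The genes described here encode 7 phospholipases A2 that act inside cells or, for Pla2g7, hydrolyse platelet-activating factor in plasma and on lipoproteins, and the 3 subunits of the brain's intracellular platelet-activating factor acetylhydrolase. They were chosen by name (Pla2g4a, Pla2g4b, Pla2g4e, Pla2g6, Pla2g7, Pla2g15, Pnpla8, Pafah1b1, Pafah1b2 and Pafah1b3), and every probe carrying 1 of these names was read. The 10 genes are among 27578 named on the array and had 17 probes, 5 genes with 1 probe and 5 with several. RNA from the brains of male C57BL/6N mice was hybridised to 1-colour Agilent arrays, 3 from wild-type animals and 3 from animals lacking Pla2g2e, a secreted phospholipase A2. All 6 are titled sham, the operation without arterial occlusion, whereas the treatment field of all 6 describes transient occlusion of the middle cerebral artery; the groups are called wild-type sham and knockout sham after their titles. The labels give neither ages nor the part of Pla2g2e that was removed, and do not say that replicates are separate animals, so p-values reflect only how these samples vary, and that variation may be technical.

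Phospholipases A2 cut the fatty acid from the middle carbon of a membrane phospholipid, leaving a lysophospholipid. The cytosolic, calcium-dependent group IVA enzyme encoded by Pla2g4a prefers arachidonate, the precursor of prostaglandins and leukotrienes, while the calcium-independent enzymes Pla2g6 and Pnpla8 serve membrane remodelling and mitochondrial lipid upkeep. Platelet-activating factor is an ether phospholipid messenger that loses its activity when an acetylhydrolase removes its acetyl group. In the brain that enzyme is built from the catalytic subunits Pafah1b2 and Pafah1b3 with Pafah1b1, better known as Lis1, a dynein partner that neurons need for migration.

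Parts of the 60-base probes that carry the comparisons below are printed 5′ to 3′. Capitals mark the longest run that each probe shares, on either strand, with a probe for another gene on the same array. Positions are those of the array design on mouse build mm9, and which exon or untranslated region a probe lies in was not analysed here.
Pla2g4a, chr1:151676814-151676873, minus strand, bases 1 to 30: cccattgtgtgtgaaTGTTATTCTGAACTA
Pla2g4b, chr2:119868539-119868598, plus strand, bases 31 to 60: ctggtggGATGGCTCAGCGGTTAAGAGtgc
Pla2g4e, brighter probe, chr2:119992643-119992702, minus strand, bases 1 to 30: tggttgttgagagATTAATGACACCCAacg
Pla2g4e, dimmer probe, chr2:120071162-120071221, minus strand, bases 1 to 30: ATTTATCAAGCCAGacgaaatgagaggcaa
Pla2g7, dimmer probe, chr17:43731745-43731804, plus strand, all 60 bases: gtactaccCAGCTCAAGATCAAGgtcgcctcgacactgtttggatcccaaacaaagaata
Pafah1b1, chr11:74487683-74487742, minus strand, bases 22 to 51: ggtcctgaCACTGACATGAAGCcacacatt
Pafah1b2, brighter probe, chr9:45774988-45775047, minus strand, bases 1 to 30: AGATTTTGCTTAATggttacattcggtagc
Pafah1b3, chr7:26080080-26080139, minus strand, bases 31 to 60: AAGCATCTTTCCTTcccttgatattaaatg
The Pla2g4b probe stands apart in this set, since its shared run is 20 bases long, against 13 to 16 bases for the other 16 member probes. Over the whole array, 3000 of 39429 probes (7.61%) share a run of at least 20 bases with a probe for another gene.

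All 17 member probes were well above background on all 6 arrays, and none was marked as an outlier. Over the arrays, 82 to 85.3% of 43020 spots were well above background and none was saturated. Levels are given as the log2 processed signal minus the array's 75th percentile over all probes, so that 0 marks a probe brighter than 75% of the others on its array; levels of different probes are not compared with each other. The arrays lay on 2 slides, with the 3 wild-type arrays and knockout replicate 1 on the first and knockout replicates 2 and 3 on the second. The value within the first slide is therefore given where it bears on a result. That value compares 1 knockout array with the 3 wild-type arrays. The deleted gene could not check the labels, because its 2 probes moved in opposite directions in the knockout (-0.59 ± 0.26 and 0.33 ± 0.18, log2 difference ± SE, limma adjusted p = 0.437 and 0.494). Both were dim in both groups, at levels of -7.87 to -6.67 and -9.15 to -8.38, and the second was well above background on only 5 of 6 arrays.

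No member differed between the genotypes after adjustment over the 22578 genes tested (limma with Benjamini-Hochberg adjustment, adjusted p from 0.380 to 0.997), and no gene of the whole array did (0.0%). At an unadjusted p under 0.05, 1 of 10 members passed, Pafah1b3, which was higher, against 3.07% of all genes that were higher and 9.35% that were lower. The differences, always knockout minus wild type, were positive for 6 members and negative for 4, with a median of 0.0025 on the log2 scale, beside -0.011 over all genes tested. Every knockout array lay above every wild-type array for 4 members, Pnpla8, Pafah1b1, Pafah1b2 and Pafah1b3, and below for 1, Pla2g4b. Over all genes 7.6% were separated upward and 12.2% downward in this way, 19.8% in all. These counts depend on the scaling. With each array centred on its median, 5 members (Pla2g6 added) were separated upward and 0 downward, against 24.8% and 4.87% of all genes. With quantile normalization 3 were separated upward, without Pafah1b1, and 1 downward, against 11.1% and 7.15% of all genes. Of the 17 probes taken singly, 5 were separated upward and 1 downward, against 7.34% upward and 19.4% in either direction of the 31954 probes tested. At an unadjusted p under 0.05, 2 member probes passed, both higher, against 3.05% of all probes that were higher and 9.06% that were lower. An exact permutation test of 3 arrays against 3 cannot give a two-sided p below 0.1.

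**Figure D1:**
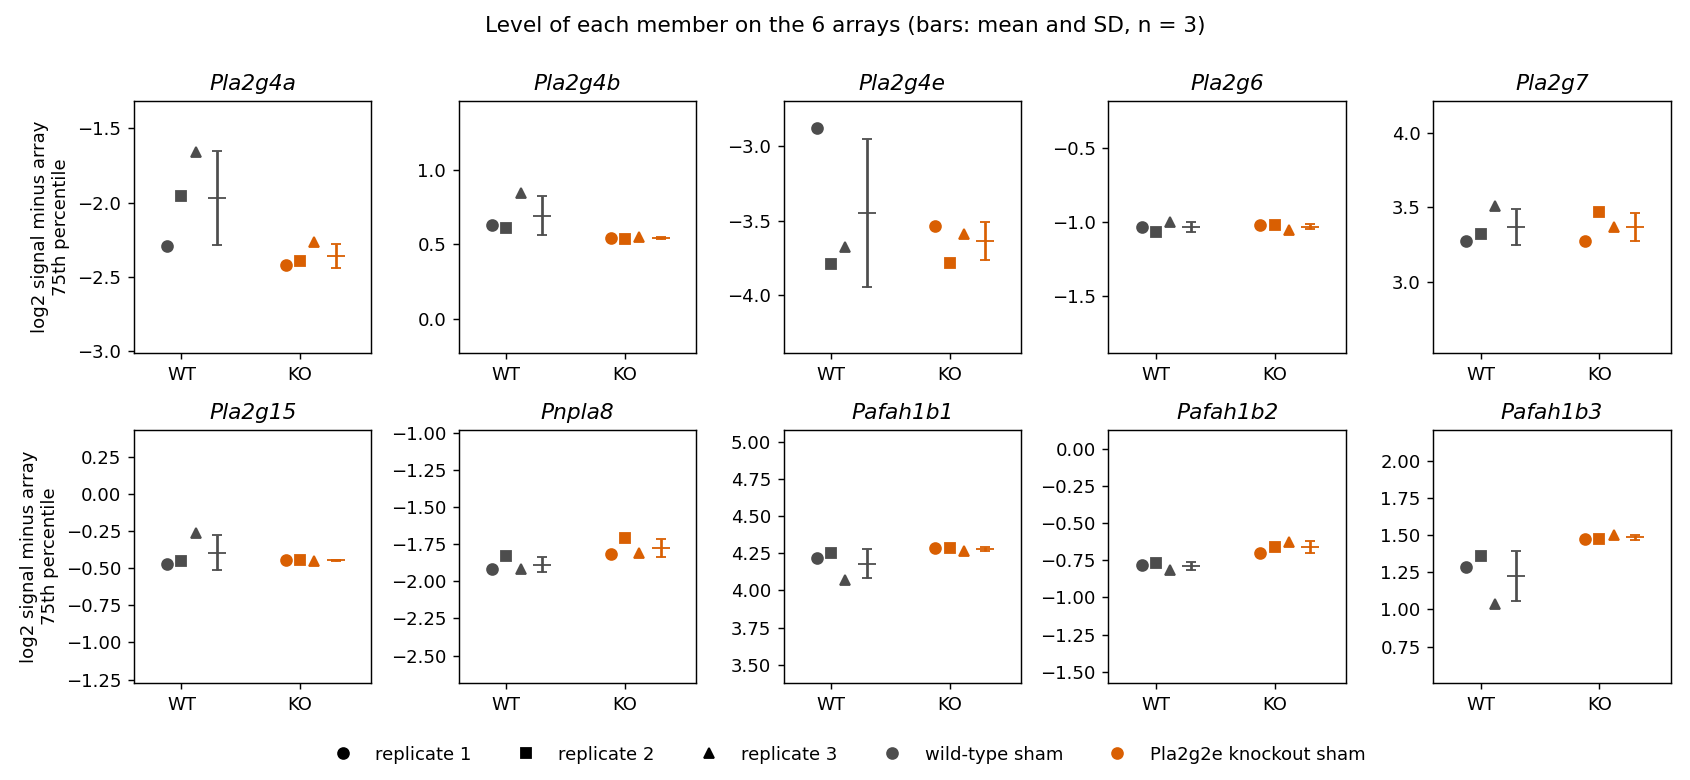
Level of the brightest probe of each member (log2 processed signal minus the array's 75th percentile, vertical axes of equal length) on the 3 wild-type sham (WT, grey) and 3 Pla2g2e knockout sham (KO, orange) arrays, with marker shape giving the replicate and bars the mean and SD (n = 3). The knockout points lie above all wild-type points for Pnpla8 and the 3 Pafah1b genes and below them for Pla2g4b.

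Pla2g4a, the arachidonate-releasing enzyme, had the largest difference in size when each of the 10 members was read on its brightest probe. This held under the scaling used. With median centring Pafah1b3 had it (0.40 against -0.25), and without wild-type replicate 3 Pla2g4e had it (-0.30 against -0.24). The level of Pla2g4a was -2.29, -1.95 and -1.66 on wild-type replicates 1 to 3 and -2.42, -2.39 and -2.26 on knockout replicates 1 to 3. Wild-type replicate 3 was the highest and wild-type replicate 1 lay within the knockout range, so the groups overlapped. The wild-type mean was -1.97 ± 0.32 and the knockout mean -2.36 ± 0.08 (SD over 3 arrays), a level 1.31-fold lower in knockout. The difference of -0.39 ± 0.16 (SE) had a 95% interval of -0.79 to 0.01 (limma adjusted p = 0.404), and within the first slide it was -0.45. Without wild-type replicate 3 it was -0.24, and without wild-type replicate 1 it was -0.55, with adjusted p of 0.551 and 0.389.

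Pla2g4b encodes another calcium-dependent group IV enzyme, and its probe also lists the Jmjd7-Pla2g4b readthrough transcript, so the 2 cannot be told apart. Its level was 0.63, 0.61 and 0.84 in wild type and 0.54, 0.53 and 0.55 in knockout. All 3 knockout arrays were below the lowest wild-type array, and wild-type replicate 3 was the highest. The difference was -0.15 ± 0.08 (limma adjusted p = 0.486) and -0.15 within the first slide, which also holds wild-type replicate 3. It shrank to -0.078 without that array, and to -0.01 when each array was centred on its median instead.

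The run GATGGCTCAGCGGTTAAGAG of the Pla2g4b probe is also carried by probes named for Coa8 and Prorsd1, and 19 bases on the other strand by a probe named for Dennd5b. These 3 probes were picked for the shared run, and all 3 had every knockout array below every wild-type array, as Pla2g4b did. Over all genes 12.2% were separated downward in this way. With median centring Pla2g4b was no longer separated, at a difference of -0.01. Whether the 3 other probes stay separated with that scaling was not tested. The Coa8 probe read 3.64, 3.58 and 3.81 in wild type and 3.46, 3.51 and 3.48 in knockout, a difference of -0.19 ± 0.08 (limma adjusted p over 31954 probes = 0.416). The Prorsd1 probe read 4.54, 4.49 and 4.70 in wild type and 4.38, 4.45 and 4.41 in knockout, a difference of -0.16 ± 0.08 (limma adjusted p = 0.462). The Dennd5b probe read 1.68, 1.75 and 1.87 in wild type and 1.504, 1.66 and 1.54 in knockout, a difference of -0.20 ± 0.08 (limma adjusted p = 0.411). Wild-type replicate 3 was the highest array for each of these probes and for Pla2g4b, as it was for 27.6% of all genes. The same run, searched on both strands, occurs in 10 of 32851 RefSeq promoter windows of build GRCm38.p6 (0.0304%). Copies in transcripts, which are what a probe binds, were not counted, so this share does not say how rare the run is among them. Whether the Pla2g4b signal comes in part from transcripts of other genes was not tested.

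**Figure D2:**
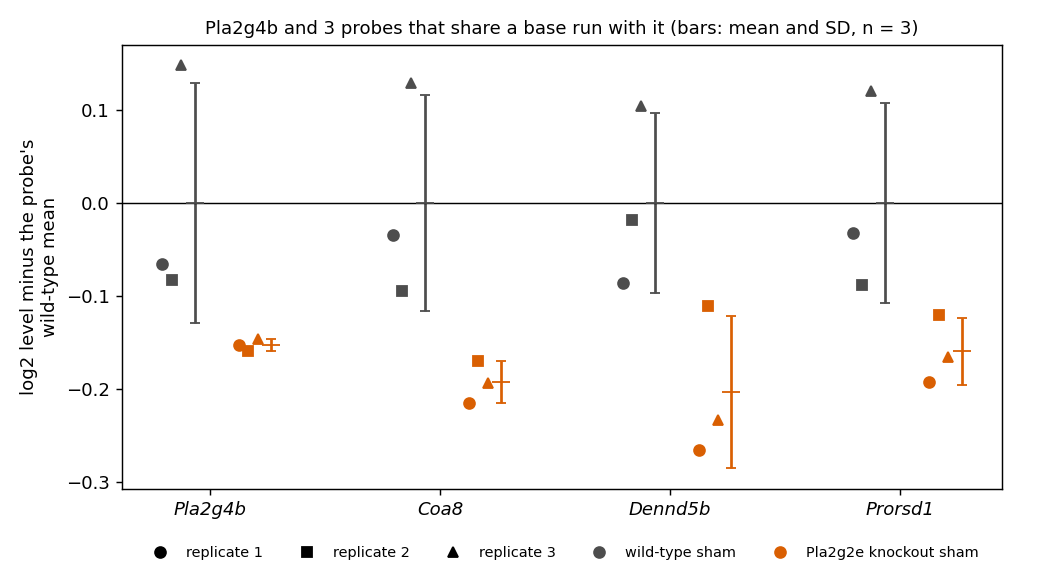
Level of the Pla2g4b probe and of the 3 probes for other genes that share its base run, each minus that probe's own wild-type mean (log2), on the 6 arrays, with marker shape giving the replicate and bars the mean and SD (n = 3). In all 4 probes the knockout points lie below every wild-type point, and wild-type replicate 3 is highest.

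Pla2g4e, whose enzyme makes N-acylated phospholipids, precursors of endocannabinoid-like lipids, had 2 probes that moved in opposite directions. On the brighter probe the level was -2.88, -3.79 and -3.67 in wild type and -3.53, -3.78 and -3.59 in knockout. Wild-type replicate 1 stood above the other 5 arrays, which lay close together, and the groups overlapped. The difference was -0.19 ± 0.25 (limma adjusted p = 0.771), and 0.10 without wild-type replicate 1. On the dimmer probe, which had a processed signal of only 6.93 to 12.4, the level was -7.98, -8.07 and -8.16 in wild type and -7.75, -7.30 and -7.64 in knockout. There every knockout array was above every wild-type array, and the difference was 0.51 ± 0.13 (95% interval 0.18 to 0.83, limma adjusted p over 31954 probes = 0.294), so the gene has no single direction in these data.

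Pla2g6, the calcium-independent enzyme whose human counterpart is mutated in infantile neuroaxonal dystrophy, had the smallest spread of the members. Its level was -1.04, -1.07 and -1.002 in wild type and -1.02, -1.02 and -1.05 in knockout. The groups lay over each other, and the pooled SD of 0.027 was at the 1.09th percentile of all genes tested. The difference of 0.0041 had a 95% interval of -0.14 to 0.14 (limma adjusted p = 0.981). With median centring the difference was 0.15 and the groups were apart.

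Pla2g7, the secreted acetylhydrolase for platelet-activating factor, had overlapping groups on both of its probes. The brighter one read 3.28, 3.32 and 3.51 in wild type and 3.27, 3.47 and 3.37 in knockout, and the dimmer one -0.24, -0.44 and -0.08 in wild type and -0.22, -0.16 and -0.23 in knockout. On both, wild-type replicate 3 was the highest array. The differences were 0.00098 (95% interval -0.22 to 0.23, limma adjusted p = 0.997) and 0.05 ± 0.10 (limma adjusted p over 31954 probes = 0.863), and median centring moved the first to 0.14. Pla2g15, a lysosomal phospholipase, read -0.47, -0.46 and -0.26 in wild type and -0.44, -0.45 and -0.45 in knockout. Its knockout arrays fell inside the wild-type range, and the difference was -0.05 ± 0.08 (95% interval -0.24 to 0.14, limma adjusted p = 0.800).

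Pnpla8, a calcium-independent phospholipase of mitochondria and peroxisomes, had 3 probes. The brightest read -1.92, -1.83 and -1.92 in wild type and -1.81, -1.71 and -1.81 in knockout, every knockout array above every wild-type array. Its difference was 0.11 ± 0.07 (limma adjusted p = 0.528), and 0.25 with median centring. The other probes differed by -0.05 ± 0.07 and 0.10 ± 0.09, with overlapping groups, so the separation was seen on 1 probe of 3.

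The 3 acetylhydrolase subunits were each separated upward in the knockout on their brightest probe, by 0.10 to 0.26. With median centring, which raised the median of all genes to 0.13, the differences were 0.24 for Pafah1b1, 0.27 for Pafah1b2 and 0.40 for Pafah1b3. Pafah1b3, a catalytic subunit, read 1.28, 1.36 and 1.04 in wild type and 1.475, 1.475 and 1.503 in knockout. The knockout arrays lay close together and above all wild-type arrays, of which replicate 3 was the lowest. The wild-type mean was 1.23 ± 0.17 and the knockout mean 1.48 ± 0.02 (SD over 3 arrays), a level 1.19-fold higher in knockout. The difference of 0.26 ± 0.10 had a 95% interval of 0.02 to 0.49 (limma adjusted p = 0.380). The difference was 0.25 within the first slide and 0.16 without wild-type replicate 3.

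Pafah1b2, the other catalytic subunit, read -0.78, -0.77 and -0.82 in wild type and -0.70, -0.66 and -0.62 in knockout on its brighter probe. The groups did not overlap, and the difference was 0.12 ± 0.06 (95% interval -0.02 to 0.27, limma adjusted p = 0.440), with 0.08 within the first slide. Its dimmer probe, with a processed signal of 9.56 to 14.0, differed by 0.01 ± 0.15 and its groups overlapped. Pafah1b1 read 4.21, 4.25 and 4.07 in wild type and 4.28, 4.28 and 4.27 in knockout on its brightest probe, a difference of 0.10 ± 0.07 (limma adjusted p = 0.584) with the groups apart. The difference was 0.045 without wild-type replicate 3, and quantile normalization made the groups overlap. A second probe that ends 33 bases away read 4.11, 4.16 and 3.88 in wild type and 4.05, 4.04 and 4.03 in knockout, with overlapping groups and a difference of -0.01 ± 0.09. The third Pafah1b1 probe differed by 0.08 ± 0.07, again with overlap, so neighbouring probes of this gene did not give the same separation. RefSeq also lists processed copies of Pafah1b1 in the mouse genome, and signal from such copies was not tested. When the probes of each gene were averaged, Pafah1b3, which has 1 probe, was the only member left separated upward.

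**Figure D3:**
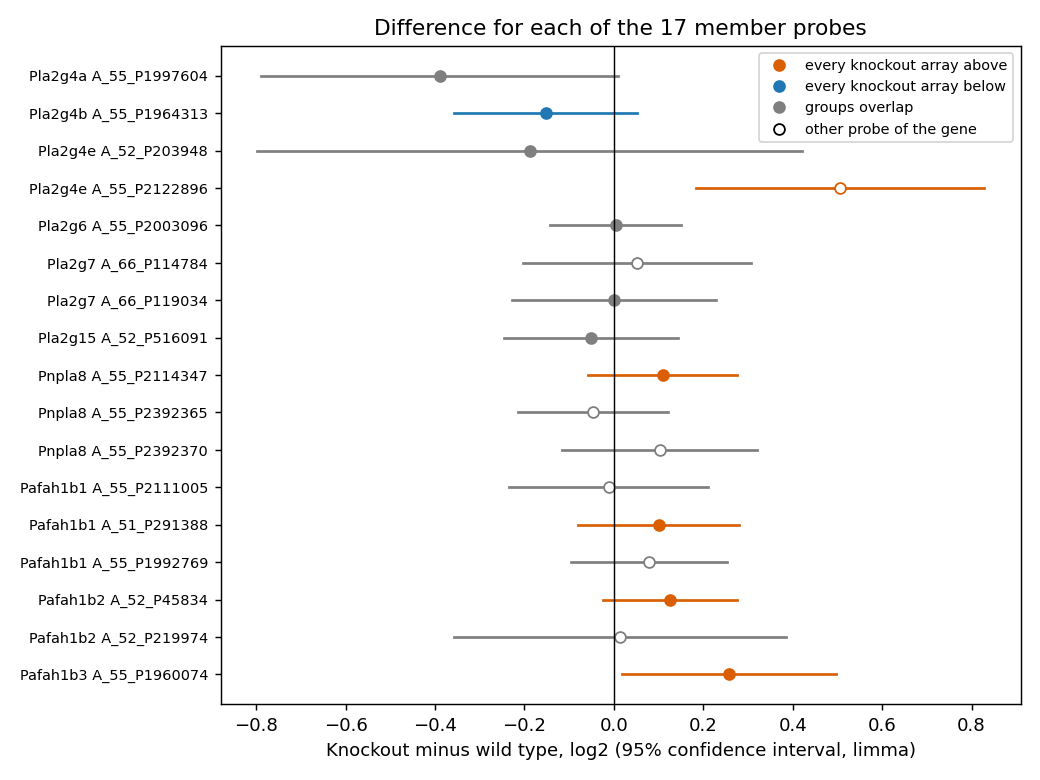
Knockout minus wild-type difference (log2, points) with its 95% confidence interval (lines, limma over all tested probes) for the 17 member probes, filled where the probe stands for its gene and coloured by whether the groups of 3 arrays overlap. Only the intervals of the dimmer Pla2g4e probe and of Pafah1b3 lie wholly above 0, and the probes of Pla2g4e, Pnpla8 and Pafah1b1 differ in sign within the gene.

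Wild-type replicate 3 lay at the edge of the range for most members, a count made after their values were seen. It was the highest of the 6 arrays for 5 members and the lowest for 4, thus an extreme for 9 of 10, against 52.3% of all genes tested. No other array was an extreme for more than 3 members. The SD was smaller in knockout than in wild type for 8 of 10 members, against 64.1% of all genes. That array also stood apart in the list of striatal markers: the median striatal marker, each gene taken against its wild-type mean, stood at 1.02 on it and between -0.87 and -0.26 on the other 5. The summed striatal signal (linear, relative to the 75th percentile) was 26.1 to 73.4 in wild type and 24.97 to 31.4 in knockout, with 9 of 10 markers well above background on all 6 arrays. All 10 striatal differences were negative, and 2 markers were separated downward, against 12.2% of all genes. For 8 meningeal and fibroblast markers, all with negative differences and 3 separated downward, the sums were 9.99 to 17.5 in wild type and 7.96 to 11.35 in knockout. The sums of 5 pericyte and smooth muscle markers, again all negative, did not overlap, at 3.36 to 3.56 in wild type and 2.34 to 3.01 in knockout. Taken singly, only 2 of the 5 were separated, Acta2 and Pdgfrb, both downward, against 12.2% of all genes. All 7 choroid plexus markers had negative differences, with sums of 4.96 to 24.9 and 7.95 to 14.6, as had 7 of 8 oligodendrocyte markers, with sums of 84.9 to 144 and 75.03 to 107. The other oligodendrocyte marker, Mbp, was higher on every knockout array, by 0.33 ± 0.09 (limma adjusted p = 0.301). It was the only one of the 8 whose groups did not overlap. In the choroid plexus list wild-type replicate 2, not replicate 3, was the wild-type array apart. Markers of neurons (8 of 8 well above background on all 6 arrays) had sums of 198 to 214 in wild type and 203 to 220 in knockout, and those of tissues outside the brain were near 0, at 0.07 to 0.08. The part of tissue make-up in the differences of Pla2g4a, Pla2g4b and Pafah1b3 was not tested. In brain tissue, fewer cells of a type and less RNA per cell cannot be told apart.

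In lists of related genes, no gene passed the adjusted threshold, and each list is described by its counts. Over all genes, 10583 of 22578 differences were positive, 7.6% were separated upward and 12.2% downward. Among 18 of 20 related intracellular phospholipases that could be tested (Pla2g4c and Pla2g4f were too dim), 10 differences were positive and 8 negative, 4 were separated upward and 1 downward, and the median was 0.02 (-0.0013 without wild-type replicate 3, -0.026 without wild-type replicate 2). Lypla1, a lysophospholipase and depalmitoylating enzyme, had the smallest p of that list, with a difference of 0.22 ± 0.08 (limma adjusted p = 0.364). Of the 4 brightest, Prdx6, Lypla2, Abhd4 and Abhd12, only Lypla2 was separated, at 0.15 ± 0.06.

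The 14 genes of platelet-activating factor and ether lipid synthesis and its receptor had 7 positive and 7 negative differences. Selenoi, an ethanolamine phosphotransferase, was the only one separated, with levels of 1.49, 1.45 and 1.43 in wild type and 1.605, 1.62 and 1.67 in knockout and a difference of 0.18 ± 0.06 (limma adjusted p = 0.347). Among 14 enzymes that use released arachidonate, 4 differences were positive and 10 negative, with a median of -0.14 that became 0.0072 when arrays were centred on their medians and -0.044 without wild-type replicate 3. Of the 14, 2 were separated upward and 2 downward, against 7.6% and 12.2% of all genes. Ptgs2, the inducible cyclooxygenase, read -1.32, -1.75 and -1.28 in wild type and -1.06, -0.92 and -0.95 in knockout, higher on every knockout array by a mean of 0.47 ± 0.14 (limma adjusted p = 0.316). Lta4h, which makes leukotriene B4, was lower on every knockout array, by a mean difference of -0.20 ± 0.08 (limma adjusted p = 0.403). Both genes were named after their values were seen, as were Lypla1, Ndel1, Dcx and Anxa1.

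For the 22 partners of Lis1 and dynein, 15 differences were positive and 7 negative, with a median of 0.04 that was -0.0011 without wild-type replicate 3, 0.0028 with the slide as a block and 0.18 with median centring. Of the 22, 2 were separated upward and 1 downward, against 7.6% and 12.2% of all genes. Ndel1, which binds Lis1 directly, read 3.16, 3.19 and 3.00 in wild type and 3.28, 3.39 and 3.33 in knockout, a difference of 0.21 ± 0.08 with the groups apart (limma adjusted p = 0.366). Dcx, doublecortin, a microtubule protein of young neurons, was lower on every knockout array, with a difference of -0.26 ± 0.08 (limma adjusted p = 0.329). Among 9 regulators of cytosolic phospholipase A2, 4 differences were positive and 5 negative and no groups were separated. Anxa1, annexin A1, an inhibitor of that enzyme, had a difference of -0.75 ± 0.29 with overlapping groups (limma adjusted p = 0.384). The kinase Mapk14, which phosphorylates it, differed by -0.00065. All 12 immediate early genes, which neuronal activity induces (Arc and Egr1 among them), had positive differences with a median of 0.49. Of these, 3 were separated upward, against 7.6% of all genes. The median of the immediate early genes was 0.25 without wild-type replicate 3 and 0.75 within the first slide.

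**Figure D4:**
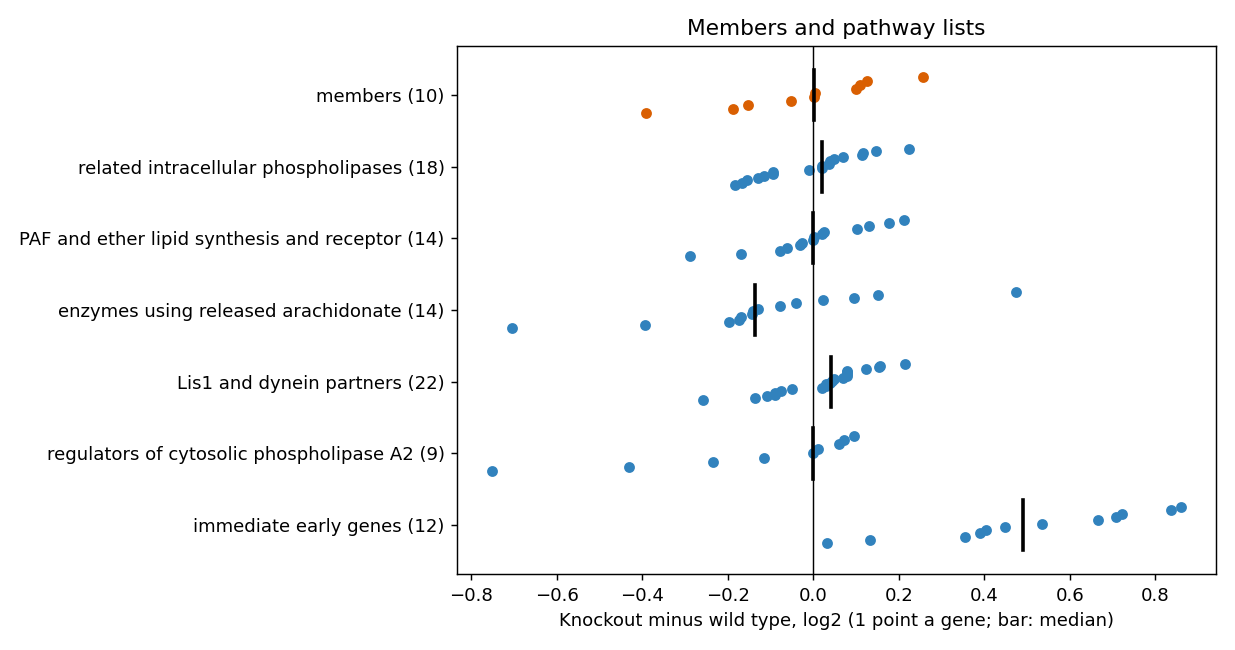
Knockout minus wild-type difference (log2) of each gene, 1 point a gene, for the 10 members (orange) and 6 lists of related genes (blue), with black bars at the medians and the number of tested genes in brackets. The members' median lies at 0.0025, and the 12 immediate early genes all lie above 0.

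Genes whose level over the 6 arrays ran most like that of a member are given as a description over 6 arrays that include both groups and share the spread of wild-type replicate 3. For Pla2g4a, genes among those with the highest Pearson correlation were Npm2 (r = 0.992) and Sema5b (r = 0.988), of 22334 genes compared. For Pla2g7 the 3 highest were Neurl1a (r = 0.995), Tmem167b (r = 0.995) and Ctsm (r = 0.992), and for Pla2g6 they were Snhg10 (r = 0.984), Tor3a (r = 0.984) and Olfr690 (r = 0.984). At r of at least 0.95 there were 95 genes for Pla2g4a, 98 for Pla2g7 and 18 for Pla2g6.

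**Figure D5:**
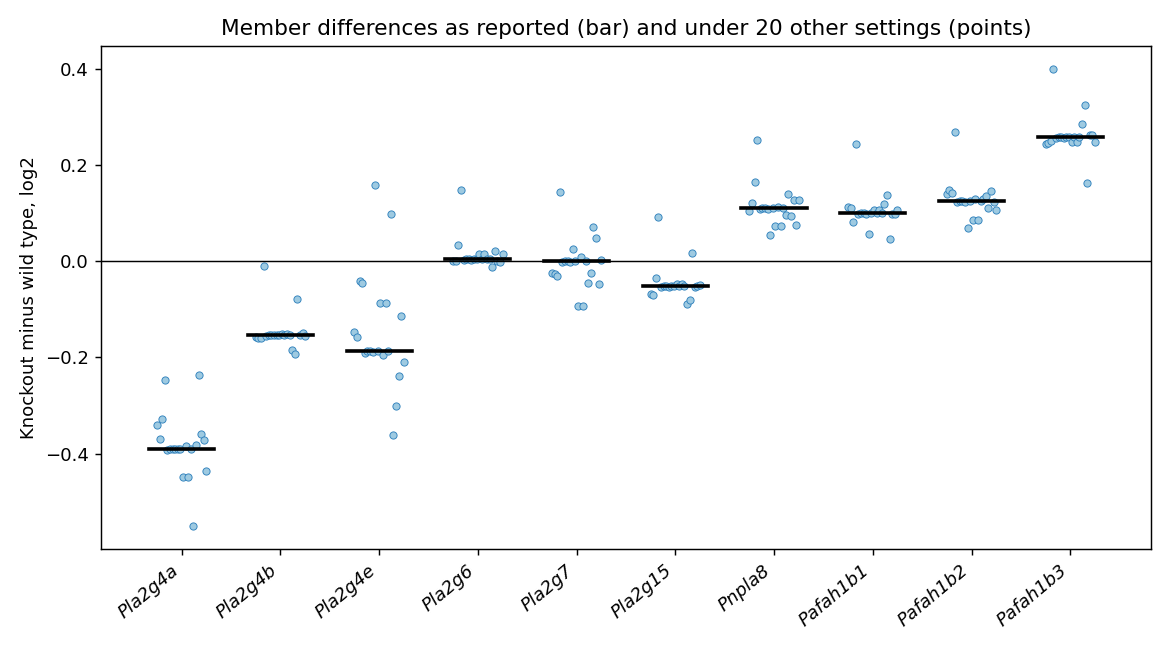
Knockout minus wild-type difference (log2) of each member as reported (black bars) and under 20 other processing settings (points). The sign was kept in every setting by 6 members, Pla2g4a, Pla2g4b, Pnpla8, Pafah1b1, Pafah1b2 and Pafah1b3. Settings that changed only the filter on dim probes, limma's variance estimate or the replicate block left every member difference as reported.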

How the data were processed

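The deposited scanner files hold 1-colour spot intensity values from Agilent Feature Extraction 12.1.1.1, per the file headers, background-subtracted and without scaling between arrays; flags for outliers and for signal above background are other columns of the same deposited files. Control and outlier spots were left out, log2 intensity was averaged per probe, and each array's 75th percentile over probes was subtracted. A first run took that percentile over spots; it was changed to probes, as the rule for these genes words it, after the first run's results were seen, and the spot version is among the alternatives. Of 39429 probes, 31954 were tested, those well above background throughout at least 1 group, with limma 3.58.1 in R 4.3.3; the brightest probe stood for a gene (22578 genes), with Benjamini-Hochberg adjustment at 0.05. limma was tested on simulated data. Symbols were updated through RefSeq tables. Members, lists and rules for named genes were chosen with earlier results of these data known: all members and probes, the 4 brightest tested genes of a list, and the 3 genes most correlated with Pla2g4a, Pla2g6 and Pla2g7; some items that these rules name are not reported here. The number of arrays limits the precision.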

Additional observations from a re-analysis of the deposited data

How the results depend on the processing

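No member passed the adjusted threshold under any of 20 alternatives, of which 1 (the percentile over spots) was chosen after seeing the data. Of 200 member values 18 turned sign, all in the 4 members outside the 6 that kept theirs. Some settings could not turn a sign. Changing only the filter on dim probes, limma's variance estimate or the replicate block left every member difference as reported. Pla2g7 was -0.024 with normexp and offset 50, -0.026 with offset 0, -0.031 with quantile normalization, -0.0012 with the percentile over spots and -0.00098 with outlier spots kept. It was -0.094 both with slide in the model and on the first slide alone. These settings give the same estimate, because the second slide holds only knockout arrays. Pla2g6 was -0.00075 with offset 50. Median centring shifted every member upward by the same amount, which took Pla2g6 to 0.15 and Pla2g7 to 0.14. Pla2g15 was 0.092 with median centring, and Pla2g4e was 0.16 with probes averaged. Leaving out 1 array gave -0.047 to 0.072 for Pla2g7, -0.012 to 0.021 for Pla2g6, -0.088 to 0.016 for Pla2g15 and -0.36 to 0.098 for Pla2g4e. Without knockout replicate 1, 60 genes were called (47 higher and 13 lower), none a member, against 0 with each other array left out. With knockout replicate 1 gone, wild type lay wholly on the first slide and knockout wholly on the second. Genotype and slide cannot then be told apart. Under median centring the all-gene median difference went from -0.011 to 0.13. At an unadjusted p under 0.05, 75.3% of 2806 genes were lower, against 45% with quantile normalization and 24.6% with median centring; 1259 genes passed with the slide block and 977 on the first slide. With the replicate number as a block, 0 genes were called. Same-numbered samples deviated together with r of -0.016, -0.13 and -0.12. With 3 arrays a group these values cannot show whether the numbers pair the samples, and the labels do not say. The causes of these shifts were not tested.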
